A study of Mus musculus with 9 samples.

Results

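Mnx1, Nom1, Lmbr1 and Rnf32 are the 4 protein-coding genes described here, chosen by symbol out of the 32289 features of the count matrices. They lie in the neighbourhood of Shh on mouse chromosome 5, where other genes, such as Rbm33, start nearer to Shh. All 4 were found in all 9 matrices. They were followed in single cells of mouse forelimb buds, between mesenchymal cells with 2 or more Shh UMIs (unique molecular identifiers, each standing for 1 captured transcript) and mesenchymal cells without any, and between 3 genotypes. The comparison of Shh-positive with Shh-zero cells belongs to the rule that picked the genes, so its values are given as a description and carry no test. The rule names the comparison of genotypes as well. That comparison was tested over libraries, with p-values adjusted over all autosomal genes. The list was drawn up with results of these data known, which the adjustment does not undo. The p-values of Mnx1 have to be read as those of a gene picked from many, and are no independent support.

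Sonic Hedgehog (SHH) is the signal made by the polarizing region at the posterior margin of the limb bud, where it sets the anteroposterior axis and sustains the growth of the digit-forming mesenchyme. The limb-specific enhancer of Shh, known as the ZRS, does not sit beside Shh but far away, inside an intron of Lmbr1, which encodes a membrane protein. Rnf32 encodes a RING finger protein, Nom1 a nucleolar protein with a MIF4G domain, and Mnx1 a homeodomain transcription factor best known from motor neurons and the developing pancreas. Grem1 encodes the BMP antagonist Gremlin1, which links SHH to the FGF signals of the apical ectodermal ridge in a feedback system.

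Each of the 9 libraries was made from the pair of forelimb buds of an embryo at E10.75 (37 to 39 somites), in a Swiss Albino background according to the methods of the study. Wild-type (Wt) embryos and embryos homozygous for EC1CRM8Δ/Δ (E1C8Δ/Δ) or EC1CRM5Δ/Δ (E1C5Δ/Δ), alleles that remove part of the limb enhancers of Grem1 and lead to limbs lacking a digit, gave 3 libraries each. The deletions are germline alleles, so all cells of the embryo carry them. No deletion touches the Shh locus, since Grem1 lies on another chromosome.

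In GRCm38 (mm10), Shh occupies chromosome 5 from 28456815 to 28467256 on the minus strand. Rnf32 follows from 29195992 to 29228457 on the plus strand, and its start is 729 kb away from that of Shh. Lmbr1 runs from 29229802 to 29378390 on the minus strand, with its start at a distance of 911 kb. Nom1 lies from 29434664 to 29457843 on the plus strand, at 967 kb. Mnx1 is the farthest of them, from 29473034 to 29478470 on the minus strand, with 1011 kb between the starts. The 250 bases in front of the RefSeq start of each gene (GRCm38.p6, from the promoter table of RefSeq, in which all 4 matched) are shown because these 4 genes share a chromosomal neighbourhood but differed widely in where their UMIs lay. Capitals mark every CANNTG, the E box bound by HAND2 and other basic helix-loop-helix factors, and every CCGGAAG, an ETS site, searched on both strands.
Rnf32 (chr5:29195743-29195992, plus strand): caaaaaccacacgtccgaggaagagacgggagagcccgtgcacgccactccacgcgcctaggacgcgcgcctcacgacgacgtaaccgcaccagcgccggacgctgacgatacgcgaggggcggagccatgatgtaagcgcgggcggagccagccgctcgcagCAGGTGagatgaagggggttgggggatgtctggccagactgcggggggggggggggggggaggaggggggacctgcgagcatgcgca
Lmbr1 (chr5:29378391-29378640, minus strand): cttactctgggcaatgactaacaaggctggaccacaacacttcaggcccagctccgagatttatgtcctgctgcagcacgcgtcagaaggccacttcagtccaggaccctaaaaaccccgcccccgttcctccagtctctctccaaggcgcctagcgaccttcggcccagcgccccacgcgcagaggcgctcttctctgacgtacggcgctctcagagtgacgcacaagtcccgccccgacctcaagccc
Nom1 (chr5:29434417-29434666, plus strand): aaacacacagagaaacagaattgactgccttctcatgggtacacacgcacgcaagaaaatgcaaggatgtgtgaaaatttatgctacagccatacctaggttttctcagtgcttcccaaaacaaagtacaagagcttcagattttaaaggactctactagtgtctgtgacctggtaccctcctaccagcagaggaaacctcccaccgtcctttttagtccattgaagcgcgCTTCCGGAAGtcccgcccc
Mnx1 (chr5:29478471-29478720, minus strand): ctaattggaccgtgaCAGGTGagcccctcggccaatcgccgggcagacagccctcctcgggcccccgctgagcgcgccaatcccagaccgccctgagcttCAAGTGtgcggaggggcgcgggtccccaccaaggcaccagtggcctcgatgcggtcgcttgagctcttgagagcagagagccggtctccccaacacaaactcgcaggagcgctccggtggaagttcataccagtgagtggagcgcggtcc
The Mnx1 stretch holds E boxes beginning 235 and 150 bases in front of the start, and that of Rnf32 holds 1, at 87 bases. At least 1 CANNTG stands in 66.2% of all 32851 promoters of the table, so its presence is common. The Nom1 stretch holds 2 overlapping CCGGAAG matches, on opposite strands, at 19 and 16 bases, and 6.91% of all promoters hold this motif. The Mnx1 stretch also holds 3 matches of CCAAT (33.8% of all promoters) and 1 of TAAT (54.9%), the core read by many homeodomain factors, and TAAT and the first CCAAT share bases. Lmbr1 has no match of these 4 motifs in the window. The GC content was 66.4% for Mnx1, 70% for Rnf32, 62% for Lmbr1 and 47.2% for Nom1, against a median of 52.4% for all promoters. Shh has no entry in that table.

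The matrices hold 133086 barcodes, of which 44654 were kept as cells. Of these, 31863 were mesenchymal and did not hold UMIs of 3 or more markers of another lineage. The median depth of the mesenchymal cells lay between 16011.5 and 47446 UMIs per library. Of the mesenchymal cells, 700 were Shh-positive, 418 had a single Shh UMI and 30745 had none. Wt replicates 1 to 3 held 132, 129 and 13 Shh-positive cells, E1C8Δ/Δ replicates 10, 82 and 72, and E1C5Δ/Δ replicates 58, 32 and 172. Wt replicate 3 and E1C8Δ/Δ replicate 1 are small libraries, with 595 and 372 mesenchymal cells, and fell below the minimum of 20 Shh-positive cells, so values of Shh-positive cells rest on 7 libraries. Of the Shh-positive cells 86.4% lay in the posterior P2-like cluster and 8.14% in the distal P4-like cluster. Both clusters were named by signature genes taken from the study, and Shh led the genes of the P2-like one. The summed level of 13 mesenchymal markers was 2331 to 2927 CPM (UMIs per 1000000 UMIs of the cells summed) in Shh-positive and 2479 to 3124 CPM in Shh-zero cells, and all 13 were detected in both. Kept barcodes shared by a pair of libraries numbered 0 to 28. Xist and Y-linked genes showed all 3 Wt embryos to be male, as were E1C8Δ/Δ replicate 3 and E1C5Δ/Δ replicate 2, while the other 4 mutant embryos were female. Xist also stood at 22.0 CPM in the male Wt replicate 1 and 8.30 CPM in the male E1C8Δ/Δ replicate 3, against at most 0.0784 CPM in the other male libraries, and at 719.8 to 1006 CPM in the female ones. Y-linked genes stood at 3.95 CPM in the female E1C8Δ/Δ replicate 1, against at most 0.0405 CPM in the other female libraries and 109.9 to 153.5 CPM in the male ones.

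Mnx1 was the member whose transcripts were concentrated in Shh-positive cells. In Wt replicates 1 and 2 its level was 6.69 and 9.61 CPM in Shh-positive cells, and 0.186 and 0.181 CPM in Shh-zero cells. In E1C8Δ/Δ replicates 2 and 3 it was 0.473 and 2.08 CPM against 0.0173 and 0.0677 CPM. In E1C5Δ/Δ replicates 1 to 3 it was 0, 0.571 and 0.672 CPM against 0.0168, 0.0169 and 0.00917 CPM. It was higher in the Shh-positive cells of 6 of 7 libraries, by 36.0-fold and 53.1-fold in Wt replicates 1 and 2 and by 27.4-fold to 73.3-fold over the 6. The mutant ratios, which set both ends of that range, rest on few counts. Shh-positive cells with a Mnx1 UMI numbered 1 and 4 in E1C8Δ/Δ replicates 2 and 3, and 1 and 5 in E1C5Δ/Δ replicates 2 and 3. Shh-zero cells held 10 Mnx1 UMIs in all E1C8Δ/Δ and 5 in all E1C5Δ/Δ libraries. The Shh-positive cells of E1C5Δ/Δ replicate 1 held no Mnx1 UMI. Mnx1 was too rare to pass the low-count filter of the fit across genes, and without that filter, an alternative chosen after seeing the data, its log2 difference was 5.28 (SE 0.30).

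Lmbr1, the gene that holds the ZRS, was also higher in all 7 libraries, with 7.32 to 13.9 CPM in Shh-positive and 4.14 to 6.41 CPM in Shh-zero cells. The ratio within a library was 1.77 to 2.66, and the levels of the 2 kinds of cells did not overlap. Rnf32 showed 2.60 to 3.81 CPM against 1.45 to 1.80 CPM, again without overlap, and ratios of 1.65 to 2.58. Nom1 was detected in 72.1% of mesenchymal cells and differed least, with 52.1 to 67.6 CPM against 48.6 to 59.6 CPM, ranges that overlap, although the ratio was above 1 in each of the 7 libraries (1.04 to 1.16). The fitted log2 differences with the library as a block were 1.04 (SE 0.10) for Lmbr1, 0.94 (SE 0.17) for Rnf32 and 0.14 (SE 0.04) for Nom1, ranking 270, 326 and 3119 among 13385 genes. The background of this comparison is wide: 16.8% of all genes tested were called higher in Shh-positive cells and 32.9% in either direction. The share of all genes whose levels in the 2 kinds of cells did not overlap was not counted, so the lack of overlap of Lmbr1 and Rnf32 may be common. Shh-positive cells were also the deeper cells, with a median of 37875 against 27773 UMIs. When cells were thinned to 10000 UMIs and Shh classes were set from the thinned UMIs, the log2 difference was 0.67 for Lmbr1 and 1.46 for Rnf32. Against Shh-zero cells of the P2-like cluster alone, it was 1.07 (SE 0.13) for Lmbr1, 0.44 (SE 0.20) for Rnf32 and 0.05 (SE 0.05) for Nom1, so that the difference of Rnf32 was smaller and that of Lmbr1 about as large as against all Shh-zero cells.

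**Figure D1:**
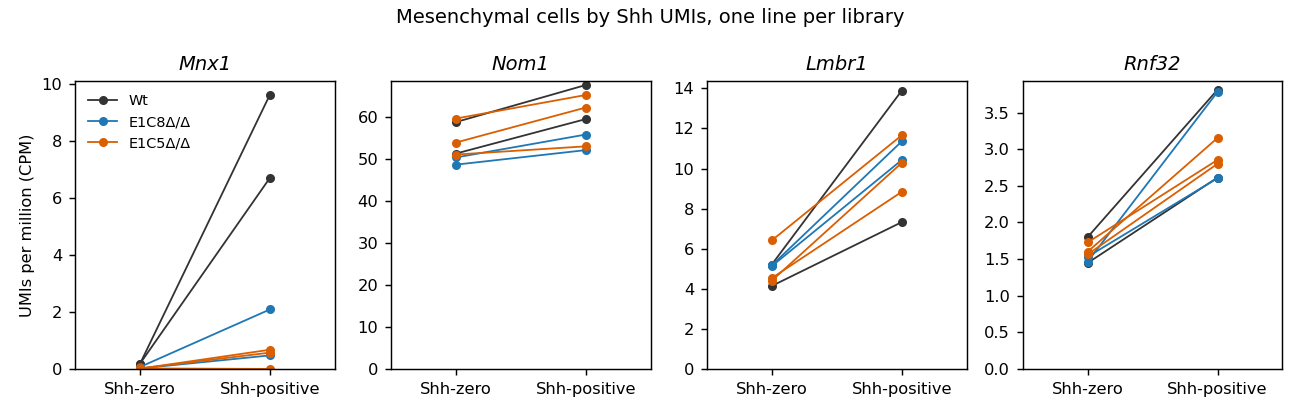
Levels of the 4 genes in CPM (linear axes starting at 0) in Shh-zero and Shh-positive mesenchymal cells, with 1 line for each of the 7 libraries. Mnx1 is at 6.69 and 9.61 CPM in the Shh-positive cells of the 2 Wt libraries and at or below 2.08 CPM in the mutant libraries, while Lmbr1 and Rnf32 are higher in all 7 and Nom1 is nearly level.

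At the edge of the class, cells with a single Shh UMI and cells with exactly 2 can be set side by side, summed over all libraries. Mnx1 stood at 0.666 CPM in the 418 cells with 1 UMI and at 2.05 CPM in the 139 cells with 2. Lmbr1 stood at 6.90 and 7.45 CPM, Rnf32 at 1.76 and 3.35 CPM, and Nom1 at 56.7 and 59.8 CPM. Over the whole range of Shh UMIs, Mnx1 in Wt cells measured 0.196 CPM without Shh UMIs, 1.29 CPM with 1, 7.21 CPM with 2 to 3, 7.87 CPM with 4 to 7 and 9.56 CPM with 8 or more. The 95% counting intervals of the last 3 values were 4.40 to 11.1, 5.48 to 10.9 and 7.35 to 12.2 CPM and overlap, so that within Shh-positive Wt cells an increase of Mnx1 with Shh was not detectable. E1C8Δ/Δ cells held 0.0406, 0.651, 1.65, 1.25 and 0 CPM in the same order, and E1C5Δ/Δ cells 0.0126, 0, 0.208, 0.261 and 0.960 CPM. In each class of Shh-positive cells the counting intervals of Wt and E1C5Δ/Δ cells did not overlap, whereas those of Wt and E1C8Δ/Δ cells overlapped with 2 to 3 Shh UMIs (up to 4.82 CPM in E1C8Δ/Δ) and did not with 4 to 7 or with 8 or more. Such intervals cover counting error only, and the cells of a genotype come from several libraries.

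Summed over all libraries and in finer classes of Shh UMIs (0, 1, 2, 3, 4 to 7, 8 to 15, and 16 or more), Mnx1 measured 0.0845, 0.666, 2.05, 3.23, 3.85, 5.00 and 5.65 CPM, in sums whose share of Wt cells differs between classes. On the same classes Lmbr1 measured 5.12 CPM in cells without Shh UMIs, 6.90 CPM with 1, 7.45 CPM with 2, 9.68 CPM with 3, 9.41 CPM with 4 to 7, 11.0 CPM with 8 to 15 and 16.2 CPM with 16 or more. Only 3 libraries held enough cells with 8 to 15 Shh UMIs for a value of their own (8.32 to 13.8 CPM) and 1 library with 16 or more (15.9 CPM), so the upper end of this order rests on few libraries. With 8 or more Shh UMIs it stood at 13.8 CPM in Wt, 11.4 CPM in E1C8Δ/Δ and 12.5 CPM in E1C5Δ/Δ, and the counting intervals overlap those of the class with 4 to 7 Shh UMIs in both deletions but not in Wt. The median depth of the cells also rose, from 27773 UMIs without Shh to 72045.5 UMIs with 16 or more, and its part in these values was not tested. On the same classes Rnf32 measured 1.59, 1.76, 3.35, 1.99, 3.14, 2.69 and 4.29 CPM, without a steady order. Nom1 stood at 53.6 CPM without Shh and at 67.9 CPM with 16 or more.

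**Figure D2:**
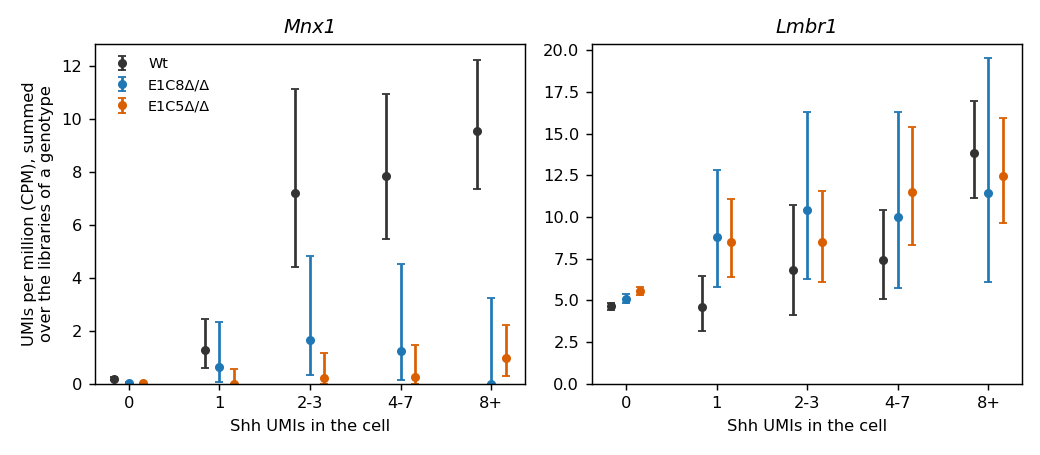
Levels of Mnx1 and Lmbr1 in CPM (linear axes from 0) in mesenchymal cells grouped by their Shh UMIs, summed over the libraries of each genotype, with exact 95% Poisson intervals of the counts as bars. Mnx1 reaches 7.21 to 9.56 CPM in Shh-positive Wt cells and at most 1.65 CPM in the mutant cells, and Lmbr1 is highest with 8 or more Shh UMIs in all 3 genotypes.

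Mnx1 was rare, with 225 UMIs in all mesenchymal cells. Of these, 57.8% came from Shh-positive cells, which make up 2.20% of the mesenchyme, and 4.89% from cells with 1 Shh UMI. Only 2.22% came from the Shh-zero cells of the P2-like cluster, whereas 23.6% came from Shh-zero cells of the P4-like cluster, which make up 8.63% of the mesenchyme, and 11.6% from all other Shh-zero cells. Wt libraries gave 196 of the 225 UMIs, so these shares are mainly those of Wt. Shh-positive cells held 60.2% of the UMIs in Wt, 29.4% of 17 in E1C8Δ/Δ and 58.3% of 12 in E1C5Δ/Δ. P4-like Shh-zero cells held 23.0%, 29.4% and 25% in the same order. Seen from Mnx1, 55.7% of the 167 cells with a Mnx1 UMI and 78.6% of the 42 cells with at least 2 also had a Shh UMI, against 3.51% of all mesenchymal cells. The P4-like cluster is led by genes of the future hand plate such as Hoxa13, Hoxd13 and Tfap2b. In its Shh-zero cells, a group singled out after its values were seen, Mnx1 measured 1.01, 0.908 and 2.24 CPM in Wt replicates 1 to 3, 0, 0 and 0.460 CPM in E1C8Δ/Δ replicates, and 0.160, 0.141 and 0 CPM in E1C5Δ/Δ replicates. The 3 Wt values were all higher than the 6 mutant ones, which rest on 5 UMIs in E1C8Δ/Δ and 3 in E1C5Δ/Δ libraries. The share of all genes that separate in this way in these cells was not counted, and no Wt embryo was female. The 57 Shh-positive cells of the P4-like cluster held Mnx1 at 8.18 CPM, summed over libraries, and the 605 Shh-positive cells of the P2-like cluster at 3.57 CPM. In Wt alone, where the makeup by genotype cannot enter, the levels of these 2 groups were 8.37 CPM (35 cells) and 8.69 CPM (222 cells), as means on the log2(CPM + 1) scale over libraries turned back to CPM.

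Across 21 classes of Wt cells (lineages and mesenchymal clusters, the P2-like and P4-like ones split by Shh), the level of Mnx1 was followed most closely by 5 of 14012 genes. Scn11a, a voltage-gated sodium channel, had a Pearson r of 0.971, Shh 0.942, 9530036O11Rik 0.935, the caudal-type homeobox gene Cdx2 0.934 and Optc, an extracellular matrix protein, 0.932. Of the other members, Rnf32 reached an r of 0.567, Lmbr1 0.400 and Nom1 0.327. These are descriptions over classes that share libraries. Since the P2-like and P4-like classes were split by Shh UMIs, the r of Shh and of a gene that overlaps it restates that split. Mnx1 itself is high in the Shh-positive classes, so the r of any gene high in Shh-positive cells restates the split in part. Scn11a and Optc are such genes, at ranks 4 and 20 by the log2 difference of Shh-positive minus Shh-zero cells. 9530036O11Rik is a noncoding gene that overlaps Shh on the opposite strand, from 28458274 to 28933995. It stood at 3.73 ± 1.48 CPM in Shh-positive cells (SD, n = 7) and at 0.0174 ± 0.0129 CPM in Shh-zero cells (n = 9). The methods of the study name Cell Ranger with default settings, which count sense reads, but do not speak of strand, and the values of this gene are given as uncertain for its overlap with Shh.

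**Figure D3:**
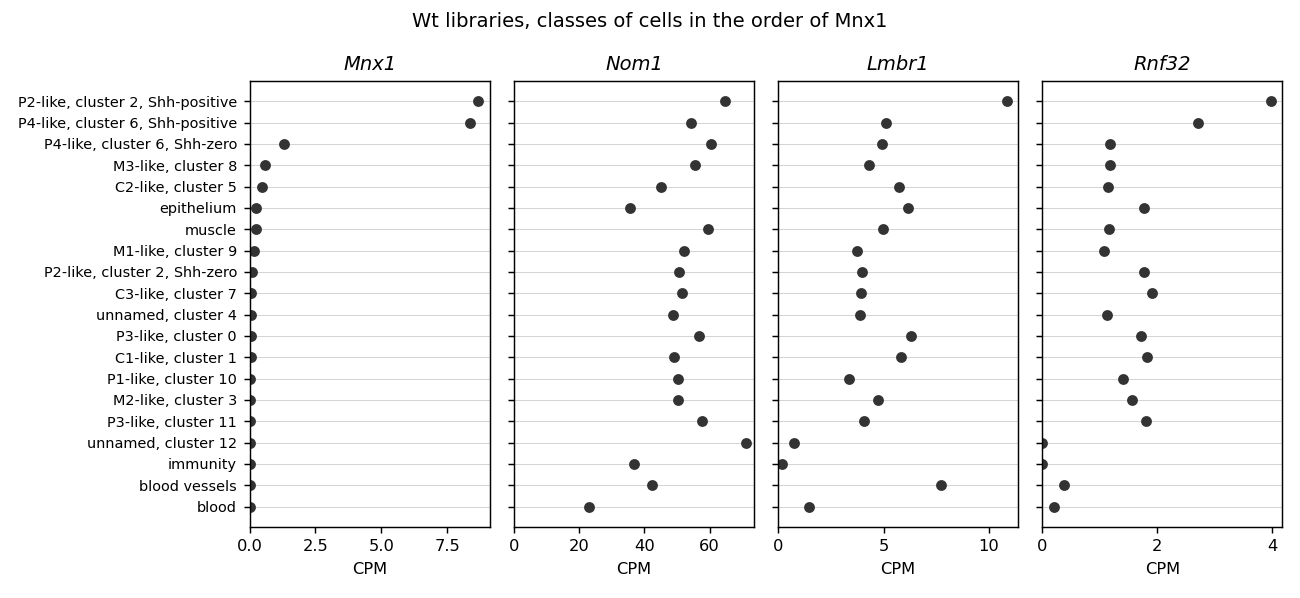
Levels of the 4 genes in 20 classes of Wt cells with at least 20 cells summed over the Wt libraries, in CPM on linear axes, as the mean of log2(CPM + 1) over the Wt libraries turned back to CPM, ordered by Mnx1. A single library can hold fewer cells of a class. Mnx1 stands out in the Shh-positive cells of the P2-like (8.69 CPM) and P4-like (8.37 CPM) clusters, followed by P4-like Shh-zero cells (1.31 CPM), while the order of Nom1 and Lmbr1 is another one.

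Few cells had a Mnx1 UMI in any lineage. Summed over libraries, the share was 0.498% in muscle progenitors (15 of 3012 cells) and 0.524% in all mesenchymal cells (167 of 31863). Outside the mesenchyme, Mnx1 measured 0.223 ± 0.194 CPM in muscle progenitors (SD, n = 9 libraries), 0.175 ± 0.356 CPM in epithelium (n = 7) and 0.0274 ± 0.0724 CPM in blood vessels (n = 7), levels that do not differ beyond their spread. None of 2197 blood cells had a Mnx1 UMI, which allows a share of up to 0.137%, and none of 215 immune cells, which allows up to 1.40%. In all mesenchymal cells it measured 0.237 ± 0.281 CPM (n = 9), a spread that holds the genotypes. Muscle progenitors stood at 0.239 ± 0.0714 CPM in Wt, 0.340 ± 0.295 in E1C8Δ/Δ and 0.0900 ± 0.106 in E1C5Δ/Δ (SD, n = 3 each), where E1C8Δ/Δ was not below Wt, and this was not tested. Motor neurons, the classical site of Mnx1, were looked for by their markers. The summed level of 10 motor neuron and neuronal markers was 7.42 to 18.8 CPM in Shh-positive and 7.35 to 13.2 CPM in Shh-zero cells, ranges that overlap, and in Shh-positive cells 8 of the 10 had a UMI, with Chat and Isl2 at 0 and Lhx3 and Slc18a3 at 1 UMI each. Of the 6 markers of this list in the fit across genes, 2 were higher and 4 lower in Shh-positive cells (median log2 difference -0.21). Tubb3, a tubulin of neurons, was among the 2 higher ones, by 1.21 on the log2 scale (SE 0.16), and by 0.99 (SE 0.17) against P2-like Shh-zero cells.

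The other members were broadly expressed, each with its own order of lineages. Nom1 measured 56.0 ± 5.53 CPM in muscle progenitors (n = 9), 53.3 ± 10.5 in immune cells (n = 5), 52.5 ± 4.39 in mesenchyme (n = 9) and 47.8 ± 7.08 in epithelium (n = 7), which do not differ beyond their spread, then 40.4 ± 4.35 in blood vessels and 28.5 ± 7.50 in blood (both n = 7). Lmbr1 was highest in blood vessels at 8.11 ± 1.96 CPM, followed by epithelium at 5.21 ± 1.26, mesenchyme at 5.15 ± 0.748 and muscle progenitors at 4.54 ± 0.943, and lowest in immune cells at 2.65 ± 1.65 and blood at 2.12 ± 1.26. Among these, epithelium, mesenchyme and muscle progenitors lie within a spread of each other, as do immune cells and blood. Rnf32 was highest in mesenchyme at 1.62 ± 0.149 CPM, followed by muscle progenitors at 0.926 ± 0.334, epithelium at 0.651 ± 0.442, blood vessels at 0.508 ± 0.255 and blood at 0.428 ± 0.348. The last 4 of these do not separate from their neighbours beyond the spread, and immune cells held no Rnf32 UMI. Within the mesenchyme, all 3 genes were found in each cluster, and Rnf32 had its highest mean in the P2-like cluster at 2.36 ± 0.317 CPM (n = 9), ahead of the C3-like cluster at 2.05 ± 0.650 CPM (n = 8), a difference within the spread. An unnamed lineage cluster of 2494 cells and low depth (median of 10690.5 UMIs) held Mnx1 at 0.525 ± 0.889 CPM from 11 UMIs.

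Between the genotypes, Mnx1 fell in both deletions of Grem1 enhancers, and the other 3 genes did not pass the test. Summed over all mesenchymal cells, Mnx1 measured 0.481, 0.519 and 0.774 CPM in Wt replicates 1 to 3 (66, 106 and 24 UMIs). It measured 0.149, 0.0251 and 0.0988 CPM in E1C8Δ/Δ replicates (2, 3 and 12 UMIs) and 0.0162, 0.0325 and 0.0346 CPM in E1C5Δ/Δ replicates (2, 2 and 8 UMIs). All Wt libraries were higher than all mutant ones, and the means were 0.591 ± 0.160 CPM in Wt, 0.0910 ± 0.0623 in E1C8Δ/Δ and 0.0278 ± 0.0101 in E1C5Δ/Δ (SD, n = 3 each). How many other genes separate Wt from mutant libraries in this way was not counted. The mean of both deletions minus Wt was -3.63 on the log2 scale (SE 0.37, 95% interval -4.45 to -2.82, a 12.4-fold lower level, adjusted p = 0.00171 in the quasi-likelihood test of edgeR). Of the 15981 genes tested, 2.3% were called in that comparison. E1C8Δ/Δ minus Wt gave -3.03 (SE 0.47, adjusted p = 0.00537 by edgeR, with 8.6% of genes called) and E1C5Δ/Δ minus Wt gave -4.24 (SE 0.48, adjusted p = 0.00281, with 1.58% called). In these fits Mnx1 passed the low-count filter with the help of the Wt libraries, where it is high. The filtered values alone are therefore no support for a fall. With no such filter, Mnx1 was still called in both deletions minus Wt and in each deletion minus Wt. That fit uses the same UMIs of the same picked gene, so it is no independent support. E1C8Δ/Δ minus E1C5Δ/Δ was 1.21 with a 95% interval from -0.14 to 2.56 (adjusted p = 0.239 by edgeR, 9.43% called), so a difference between the deletions was not shown, within that interval.

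The genotypes differ in sex, since no Wt embryo was female. With embryo sex as a covariate the difference of both deletions from Wt in all mesenchymal cells was -3.07 with an adjusted p of 0.0614 by edgeR, no longer past the threshold, and 10 genes in all were called in that fit against 368 without the covariate. Among the 5 male libraries alone, an alternative chosen after seeing the data with a single library for each deletion that is assumed to vary like the Wt ones, it was -3.24 with an adjusted p of 0.0650. Neither single deletion passed there either: the adjusted p by edgeR was 0.0504 for E1C8Δ/Δ and 0.0798 for E1C5Δ/Δ with the sex covariate, and 0.179 and 0.204 among male libraries. The single male library of each deletion, at 0.0988 and 0.0325 CPM, lay below all 3 Wt libraries.

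**Figure D4:**
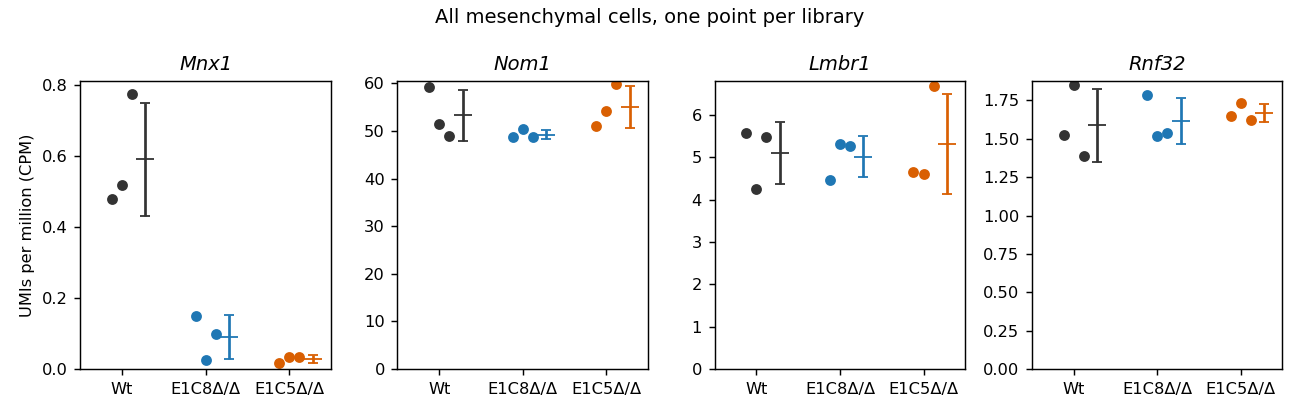
Levels of the 4 genes in all mesenchymal cells of each library in CPM, on linear axes from 0, with points for libraries and bars for mean ± SD (n = 3 per genotype). The 3 Wt libraries lie at 0.481 to 0.774 CPM for Mnx1 and all mutant libraries at or below 0.149 CPM, whereas the points of Nom1, Lmbr1 and Rnf32 overlap between genotypes.

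The lower level of Mnx1 was seen both outside and inside the Shh-positive cells. In Shh-zero cells Mnx1 measured 0.186, 0.181 and 0.342 CPM in Wt, 0, 0.0173 and 0.0677 CPM in E1C8Δ/Δ and 0.0168, 0.0169 and 0.00917 CPM in E1C5Δ/Δ libraries, again without overlap. The share of all genes without such overlap was not counted here either. Both deletions minus Wt was -3.15 (SE 0.46, adjusted p = 0.00789 by edgeR, 2.31% of 15950 genes called), E1C8Δ/Δ minus Wt -2.39 (SE 0.55, adjusted p = 0.0260, 8.65% called) and E1C5Δ/Δ minus Wt -3.91 (SE 0.60, adjusted p = 0.00983, 1.55% called). The E1C8Δ/Δ call was lost without Wt replicate 1 or 2 or without E1C8Δ/Δ replicate 1 or 2, and that of E1C5Δ/Δ without its replicate 3. With sex as a covariate the adjusted p by edgeR was 0.191 for both deletions, 0.146 for E1C8Δ/Δ and 0.230 for E1C5Δ/Δ, and among male libraries 0.335, 0.479 and 0.581, so none of these calls held. In Shh-zero and in Shh-positive cells Mnx1 passed the low-count filter through the Wt libraries, where it is high, so the filtered values alone are no support for a fall. With no such filter, where each autosomal gene with a UMI entered, both deletions minus Wt was -3.15 (adjusted p = 0.000824 by edgeR, 23958 genes) in Shh-zero and -3.36 (adjusted p = 0.00374, 18060 genes) in Shh-positive cells. Those fits also use the same UMIs and are no independent support. In the Shh-positive cells of 7 libraries, with values given above, both deletions minus Wt was -3.33 (SE 0.47, adjusted p = 0.0170 by edgeR, 0.157% of 10171 genes called). E1C5Δ/Δ minus Wt was -3.97 (SE 0.55, adjusted p = 0.00884, 0.236% called), and E1C8Δ/Δ minus Wt was -2.69 (SE 0.66) with an adjusted p of 0.0816 that missed the threshold (0.58% called). The latter passed in 3 alternatives, with at least 10 cells per library (-2.99, adjusted p = 0.0228 by edgeR), with 1 or more Shh UMIs (-3.01, 0.0431) and without E1C5Δ/Δ replicate 3 (-2.68, 0.0476). The call for both deletions in Shh-positive cells was lost without Wt replicate 2 (adjusted p = 0.102 by edgeR), without E1C8Δ/Δ replicate 2 (0.0909) and with sex as a covariate (0.295), while the 4 male libraries, with a single one for each deletion and 2 of Wt to give the spread, gave 0.00458. The call of E1C5Δ/Δ minus Wt was lost with sex as a covariate (-3.02, adjusted p = 0.550 by edgeR) and without E1C5Δ/Δ replicate 2 (0.0533). E1C8Δ/Δ minus E1C5Δ/Δ was 1.52 (95% interval -0.22 to 3.25, 9.45% of genes called) in Shh-zero cells and 1.29 (-0.82 to 3.40, 0.324% called) in Shh-positive cells, neither past the threshold.

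The share of Shh-positive cells with a Mnx1 UMI was compared as well, and it depends on depth. The median depth of these cells was 35331 and 42154 UMIs in Wt replicates 1 and 2, 19538.5 and 26021.5 in E1C8Δ/Δ replicates 2 and 3, and 42266.5 to 46540 in E1C5Δ/Δ replicates. The share was 22.0% (29 of 132) and 30.2% (39 of 129) in Wt replicates 1 and 2, with Wilson 95% intervals of 15.8 to 29.8% and 23.0 to 38.6%. It was 1.22% (1 of 82) and 5.56% (4 of 72) in E1C8Δ/Δ replicates 2 and 3. In E1C5Δ/Δ replicates it was 0 of 58, which allows up to 5.17% by the limit of 3 counts and up to 6.21% by the Wilson interval, then 3.13% (1 of 32) and 2.91% (5 of 172). The mean share was 23.5 percentage points lower in both deletions than in Wt (2.56% in 5 against 26.1% in 2 libraries), and the exact two-sided permutation test gave p = 0.0476, the smallest that its 21 splits allow, which became 0.143 after Benjamini-Hochberg adjustment over 3 comparisons. E1C8Δ/Δ alone gave p = 0.333 and E1C5Δ/Δ alone p = 0.1 by the same exact test, in both cases the smallest possible. Thinned to 10000 UMIs per cell, which left 2 Wt and 4 mutant libraries, the shares were 4.76 and 11.1% in Wt, 0 and 4.55% in E1C8Δ/Δ, and 0 and 2.86% in E1C5Δ/Δ, with a difference of 6.09 percentage points and an exact permutation p of 0.0667, again the smallest possible. In blood cells the share was 0 of 2197 (median depth of 32704 UMIs), below that of Wt replicates 1 and 2 and of 4 of the 5 mutant libraries.

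Shh itself measured 7.10 ± 1.60 CPM in Wt, 5.28 ± 2.84 in E1C8Δ/Δ and 4.01 ± 2.03 in E1C5Δ/Δ over all mesenchymal cells (SD, n = 3 each), which overlap. Its difference of both deletions from Wt was -0.67 (SE 0.29, 95% interval -1.30 to -0.05, adjusted p = 0.234 by edgeR) and did not pass the test. Grem1, whose enhancers are deleted, measured 37.6 ± 7.66 CPM in Wt, 13.0 ± 1.46 in E1C8Δ/Δ and 20.3 ± 4.49 in E1C5Δ/Δ, and fell by 1.19 on the log2 scale over both deletions (SE 0.13, adjusted p = 0.00200 by edgeR).

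Nom1, Lmbr1 and Rnf32 were not called in any of the 12 comparisons of genotypes. For both deletions minus Wt in all mesenchymal cells, the log2 difference was -0.02 for Nom1 (95% interval -0.19 to 0.15), 0.05 for Lmbr1 (-0.24 to 0.34) and 0.03 for Rnf32 (-0.31 to 0.36). In CPM, Nom1 stood at 53.2 ± 5.42 in Wt, 49.2 ± 0.990 in E1C8Δ/Δ and 55.1 ± 4.47 in E1C5Δ/Δ. Lmbr1 stood at 5.11 ± 0.735, 5.02 ± 0.478 and 5.31 ± 1.19, and Rnf32 at 1.59 ± 0.239, 1.61 ± 0.150 and 1.67 ± 0.0589 in the same order (SD, n = 3 each). In the Shh-positive cells, which are fewer, the intervals were wider: -0.41 to 0.14 for Nom1, -0.48 to 0.56 for Lmbr1 and -0.86 to 0.73 for Rnf32. Differences within these bounds could not be detected, and a fall as large as that of Mnx1 lies outside each interval. The lowest adjusted p of the 3 genes in all mesenchymal cells belonged to Nom1 in E1C8Δ/Δ minus E1C5Δ/Δ (-0.25, SE 0.09, adjusted p = 0.101 by edgeR).

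**Figure D5:**
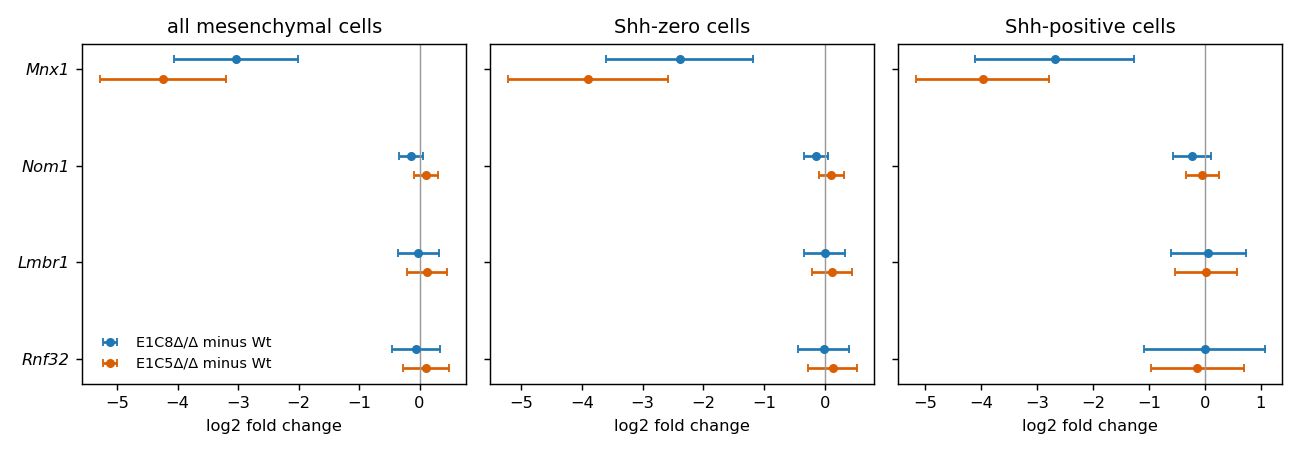
Log2 fold changes of E1C8Δ/Δ and E1C5Δ/Δ against Wt for the 4 genes in all mesenchymal, Shh-zero and Shh-positive cells, from the edgeR fits, with 95% intervals as bars and the axis in log2 units. The points of Mnx1 lie between -4.24 and -2.39 in all 3 sets of cells, and the intervals of Nom1, Lmbr1 and Rnf32 include 0.

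Around these members, a list of 13 genes of the Shh locus gave 10 genes that could be tested in all mesenchymal cells. Of these, 1 rose and 1 fell in both deletions minus Wt, and 8 did not pass (median log2 difference -0.08, against -0.01 over all genes, of which 2.3% were called). The one that fell was Mnx1, and the one that rose was Insig1, a regulator of sterol synthesis on the other side of Shh at 396 kb from its start, with a log2 difference of 0.60 (SE 0.12, adjusted p = 0.0363 by edgeR). Insig1 was called in E1C8Δ/Δ minus Wt (0.73) but not in E1C5Δ/Δ minus Wt (0.47, adjusted p = 0.144). Rbm33, an RNA-binding protein gene that starts 150 kb from Shh, did not pass (-0.14, adjusted p = 0.456). Ube3c and Dnajb6, which follow beyond Mnx1, did not pass either, with -0.15 and -0.06. En2 and Cnpy1, close to Shh, were nearly silent with 7 and 5 UMIs in all mesenchymal cells. The noncoding 9530036O11Rik gave -0.53 with a 95% interval from -1.70 to 0.64.

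The pathway downstream of Shh was represented by a list of 17 hedgehog genes (ligand, receptors, transducers and targets), all of them tested. In both deletions minus Wt 1 fell, none rose and 16 did not pass (median -0.09). The one called was Hhip, a membrane-bound hedgehog antagonist and target of the pathway, at -1.28 (SE 0.18, adjusted p = 0.00823 by edgeR), with 4.31 ± 0.155 CPM in Wt, 1.87 ± 0.651 in E1C8Δ/Δ and 1.78 ± 0.557 in E1C5Δ/Δ. Upstream, of 21 factors known to act on Shh transcription in the limb, 1 fell, none rose and 20 did not pass (median -0.09). That one was Hoxd13, a posterior and distal Hox gene, at -0.75 (SE 0.14, adjusted p = 0.0264 by edgeR). In Shh-positive cells no gene of these 2 lists was called for both deletions, where 0.157% of all genes were. Hoxa13 was the one called there in E1C5Δ/Δ minus Wt, at -1.33 (SE 0.19, adjusted p = 0.00884 by edgeR, 0.236% of all genes called). Of 7 motor neuron markers that could be tested in all mesenchymal cells, none was called in any of the 4 comparisons. These lists were chosen with earlier results of these data known, and in all mesenchymal cells shares of 1 in 17 and 1 in 21 stand against 2.3% of all genes called. The calls of Hhip, Hoxd13 and Hoxa13, and those of Insig1 and Grem1 above, come from fits without sex as a covariate. With it, 10 genes in all were called for both deletions in all mesenchymal cells, against 368. Whether these genes stayed called is not given here.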

How the data were processed

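Single-cell 3′ RNA libraries (10x) of 9 pairs of forelimb buds were analysed, 3 per genotype. The authors deposited unnormalised UMI counts per gene and barcode, and the submitters' processing notes name Cell Ranger 6.0.1, Seurat 4.3.0.1 and mm10. Cells with over 2500 genes, under 200000 UMIs and under 10% mitochondrial UMIs were kept. Called doublets (7778) were removed, and so were mesenchymal cells with UMIs of 3 or more markers of another lineage. Cells were clustered with Seurat 5.3.0 and named by marker lists. Libraries held 26620760 to 500559729 UMIs, and Poisson and Wilson intervals cover counting error only, while those of fitted differences cover the spread between libraries. UMIs were summed per library and cell set, since cells are not replicates, and genotypes were compared with the quasi-likelihood test of edgeR 4.0.16 (TMM, filterByExpr, Benjamini-Hochberg adjustment over autosomal genes, called under 0.05). DESeq2 1.42.0 was an alternative. CPM are scaled to the UMIs of the cell set. X and Y genes and 4 transgene features were left out. The fits were tested on simulated data. Xist and Y-linked genes gave the sex of each embryo. Named genes were the 4 members, Shh, Grem1, genes of the lists that passed or lie nearest Shh, and the 5 genes most like Mnx1. The members and lists were chosen with earlier results of these data known. Each library is a separate embryo, so p-values measure the spread between libraries, in which embryo and preparation cannot be told apart. Replicate numbers only name libraries.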

Additional observations from a re-analysis of the deposited data

Results flagged for a closer look

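Some genes of the lists differed between the 2 deletions themselves, by the edgeR test of E1C8Δ/Δ minus E1C5Δ/Δ on the log2 scale. Of all genes tested, 9.43% were called in this comparison in all mesenchymal, 9.45% in Shh-zero and 0.324% in Shh-positive cells. Of the genes tested in all mesenchymal cells, 1 of 10 in the locus list, 0 of 17 in the hedgehog list and 2 of 21 in the list of Shh regulators were called, shares near or below that background. In all mesenchymal cells Grem1 differed by -0.72, Rbm33, a neighbour of Shh, by -0.41, the ETS factor gene Etv5 by -0.64 and the distal Hox gene Hoxa13 by 1.14. In Shh-zero cells Grem1 differed by -0.72, Rbm33 by -0.41, Etv5 by -0.67 and Disp1, which releases SHH from the cell, by -0.51. In Shh-positive cells Hoxa13 differed by 1.42. E1C8Δ/Δ holds 1 male of 3 embryos and so does E1C5Δ/Δ.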

How the results depend on the processing

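For both deletions minus Wt, the difference of Mnx1 stayed below 0 under all alternatives that gave a value. With sex as a covariate it was -3.07 in all mesenchymal, -2.27 in Shh-zero and -2.61 in Shh-positive cells, and among male libraries, chosen after seeing the data, -3.24 and -2.55 in the first 2, all short of the threshold. Leaving out 1 library gave -4.02 to -3.31, -3.83 to -2.87 and -4.03 to -2.95, and calls were lost only in Shh-positive cells, without Wt replicate 2 (-2.98) or E1C8Δ/Δ replicate 2 (-2.95). Counts of genes called moved more. From 368 in all mesenchymal cells they went to 916 with DESeq2, 113 with the replicate block, 10 with sex, 19 among males, 136 when thinned and 110 to 765 without 1 library, highest without E1C5Δ/Δ replicate 3. From 369 in Shh-zero cells they went to 933, 106, 7, 20, 148 and 117 to 795 in the same order, and to 562 with no low-count filter. From 16 in Shh-positive cells they went to 6 with the replicate block, 0 with sex (edgeR, with 1032 genes at an unadjusted p under 0.05), 161 among males, 6 when thinned, 26 with at least 10 cells per library and 4 to 45 without 1 library. The cause was not tested. Replicate numbers did not pair the libraries: deviations of same-numbered libraries correlated at -0.254 to 0.195, and 1 of 9 correlated best with its own number. With the replicate block Mnx1 stood at -3.85, -3.43 and -4.72 in the 3 sets of cells. For Shh-positive minus Shh-zero cells, Nom1 moved to 0.081 with no filter and to 0.053 against P2-like cells, Lmbr1 to 0.67 when thinned, and Rnf32 to 0.44 against P2-like cells and 1.46 when thinned. The share of cells with Mnx1 differed by -6.09 points when thinned and by -27.7 to -19.4 without 1 library, where too few splits remain to reach 0.05. DESeq2 gave no adjusted p for Mnx1 in both deletions minus Wt in Shh-zero and Shh-positive cells, and thinned Mnx1 missed the low-count filter there.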
